A study of Mus musculus with 8 samples.

Results

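Primary cilium and intraflagellar transport genes were described in the cerebellum of newborn mice that lack the Hedgehog pathway inhibitor Sufu in the granule cell lineage. The 51 members were taken from a fixed list of symbols covering the intraflagellar transport complexes, their motors, the BBSome, ciliary membrane signalling proteins and the transition zone. All 51 had a row among the 24062 genes of the count files, and all 51 passed the filter on low counts that left 15789 genes for testing. Each member had at least 96 counts in every library, so none was limited by absence of reads.

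Whole cerebella were collected one by one from pups at postnatal day 2, with 4 Math1-Cre; Sufu flox/- mutants and 4 control littermates, which the series text gives as Sufu flox/+. In the cross described, one parent carried Math1-Cre and one null Sufu allele and the other was homozygous for floxed Sufu and for a Math1 mgfp allele. By that cross every pup, mutant or control, would carry 1 floxed Sufu allele and 1 Math1 mgfp allele, on a strain listed as C57BL/6(mixed). No source used here says if the control pups had Cre. Math1, also called Atoh1, is active in the precursors of granule neurons, so Cre acts in one lineage of a tissue that was sequenced whole, while the null Sufu allele of the mutants is present in all of their cells. The titles of the libraries also carry a letter, P or R, whose meaning is not stated: controls 1 and 2 and mutants 1 and 2 have P, and controls 3 and 4 and mutants 3 and 4 have R. The letter is used below as a grouping of 2 controls and 2 mutants each.

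The primary cilium is a membrane-covered, microtubule-based projection that most vertebrate cells, including granule cell precursors, build from the older centriole after division. It is assembled by intraflagellar transport (IFT), in which kinesin-2 carries IFT-B and IFT-A particles to the tip and dynein-2 returns them, while the transition zone at the base and the BBSome control which membrane proteins enter and leave. Vertebrate Hedgehog signalling depends on it: Smoothened enters the cilium when the pathway is on, and Sufu and the Gli transcription factors pass through the ciliary tip.

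The 8 libraries held between 21479565 and 26638284 counts in genes. Sufu itself read 47.7 to 60.7 CPM, counts scaled to a common library total, in the controls and 31.7 to 39.8 CPM in the mutants, without overlap. Markers of granule precursors, Purkinje cells and other cerebellar cells were present in every library, and 9 of 9 cerebellar tissue markers had a higher mean in the mutants. Mutant 4 stood apart: 11 Hox genes of the hindbrain behind the cerebellum summed to 6.47 CPM there, against 63.5 to 169.9 CPM in the other mutants and 118 to 205 CPM in the controls. Xist read 1.76 CPM in mutant 2 and 0.818 CPM in mutant 4, against 1449 to 2197 CPM in the other 6 libraries. Both low libraries were mutants, so sex, as far as Xist tells it, was not balanced between the groups. Its part in the values below was not tested. Choroid plexus markers summed to between 1555 and 3562 CPM in the controls and between 3858 and 6490 CPM in the mutants, with 9 of 10 higher in mean. Of these 10, 8 were higher without overlap, beside 3.6% of all genes, and the median log2 fold change was 0.85. Markers of the oligodendrocyte lineage summed to between 1246 and 1873 CPM in the controls and to 1245, 1013, 1152 and 644 CPM in mutants 1 to 4. Of these 9, 8 were lower in mean and 3 lower without overlap, beside 2.96% of all genes, and none was at 0. Values without mutant 4 are printed beside log2 fold changes of 0.10 or more in size, and role medians, that it moved by over 1.5 times, and beside those of Evc, Tulp3 and Kif17.

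Many genes of ciliogenesis are known targets of RFX transcription factors, which bind a motif called the X-box in proximal promoters. The promoters of 46 of the 51 members were present in the RefSeq table for GRCm38.p6, from 250 bases before to 50 bases after the annotated start, and no entry matched Ift80, Ift81, Ift122, Dync2li1 or Tmem67. An X-box, 2 inverted half-sites separated by up to 3 bases and searched on both strands, matched in 6 of the 46 (13%), against 2.01% of 11713 tested genes and 1.75% of all 27025 promoters in the table. The half-site GTTGCC alone, searched on both strands and contained in most X-box matches, was found in 19 of 46 (41.3%), against 15% of tested genes. The Gli motif GACCACCCA, on either strand, was in 0 of 46 windows, against 0.248% of tested genes. At so low a share, 0 of 46 cannot tell if the members differ from other genes in this motif. The 6 members with an X-box were Ift57, Kif17, Bbs1, Tctn1, Tctn2 and Tctn3.

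The promoters of Ift57, Kif17, Tctn3 and Evc are printed: Evc and Kif17 had the largest expression differences, and the others show how the motif is placed. The 250 bases before the start are given 5′ to 3′ on the gene's strand, with motif matches in capitals. Ift57, at chr16:49699044-49699293 (plus strand), has 2 X-boxes, 87 and 60 bases before the start.
Ift57: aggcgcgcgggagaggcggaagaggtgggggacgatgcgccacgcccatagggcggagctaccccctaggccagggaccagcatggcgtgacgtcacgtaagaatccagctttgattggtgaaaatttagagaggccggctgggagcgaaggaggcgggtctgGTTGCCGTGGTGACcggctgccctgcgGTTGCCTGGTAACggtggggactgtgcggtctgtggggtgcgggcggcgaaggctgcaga
Kif17, at chr4:138262001-138262250 (plus strand), has 1 X-box, 73 bases before the start.
Kif17: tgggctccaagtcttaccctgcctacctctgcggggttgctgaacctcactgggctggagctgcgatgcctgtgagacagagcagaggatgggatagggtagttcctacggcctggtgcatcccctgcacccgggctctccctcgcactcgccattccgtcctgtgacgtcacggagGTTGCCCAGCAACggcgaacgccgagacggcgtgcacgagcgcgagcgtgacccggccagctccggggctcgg
Tctn3, at chr19:40612232-40612481 (minus strand), has 1 X-box, 140 bases before the start.
Tctn3: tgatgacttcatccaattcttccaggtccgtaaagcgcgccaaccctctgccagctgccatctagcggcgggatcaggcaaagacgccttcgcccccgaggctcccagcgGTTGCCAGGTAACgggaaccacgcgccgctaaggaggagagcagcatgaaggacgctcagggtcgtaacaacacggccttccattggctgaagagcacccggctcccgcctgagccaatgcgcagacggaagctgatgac
Evc, at chr5:37336882-37337131 (minus strand), has no X-box by this search, and the capitals mark a half-site read on the other strand.
Evc: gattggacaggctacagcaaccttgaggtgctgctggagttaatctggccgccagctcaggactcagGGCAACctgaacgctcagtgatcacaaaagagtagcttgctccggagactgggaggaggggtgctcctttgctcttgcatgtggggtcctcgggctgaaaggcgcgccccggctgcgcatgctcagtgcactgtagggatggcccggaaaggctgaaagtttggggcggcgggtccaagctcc
Expression of these 4 genes differed in direction: Ift57 and Evc had a higher mean in the mutants, Kif17 a lower one, and Tctn3 lay near 0. A match is a description of the letters, and binding was not measured.

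Between mutants and controls no cilium member passed an adjusted p of 0.05 in edgeR's quasi-likelihood test, where 0% of the 15789 genes tested did, and DESeq2 also called 0 members while calling 0.31% of these genes. The smallest adjusted p of a member was 0.381. That was also the smallest of any gene tested in edgeR. Sufu itself had this value there, while DESeq2 called it (adjusted p = 0.00121). The 0 members called therefore does not show that the members were unchanged. At an unadjusted p under 0.05, 4 members were higher (Evc, Tulp3, Ift80 and Ift140), against 6.94% of all genes, and 1 was lower (Kif17), against 5.7%. The 4 mutant values lay above all 4 control values for 4 members (Evc, Tulp3, Ift80 and Wdr35), against 3.6% of all genes, and below them for Kif17, against 2.96%. These counts are given as a description beside the background. Fewer cells of a type and less RNA per cell cannot be told apart in these whole-tissue libraries.

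**Figure D1:**
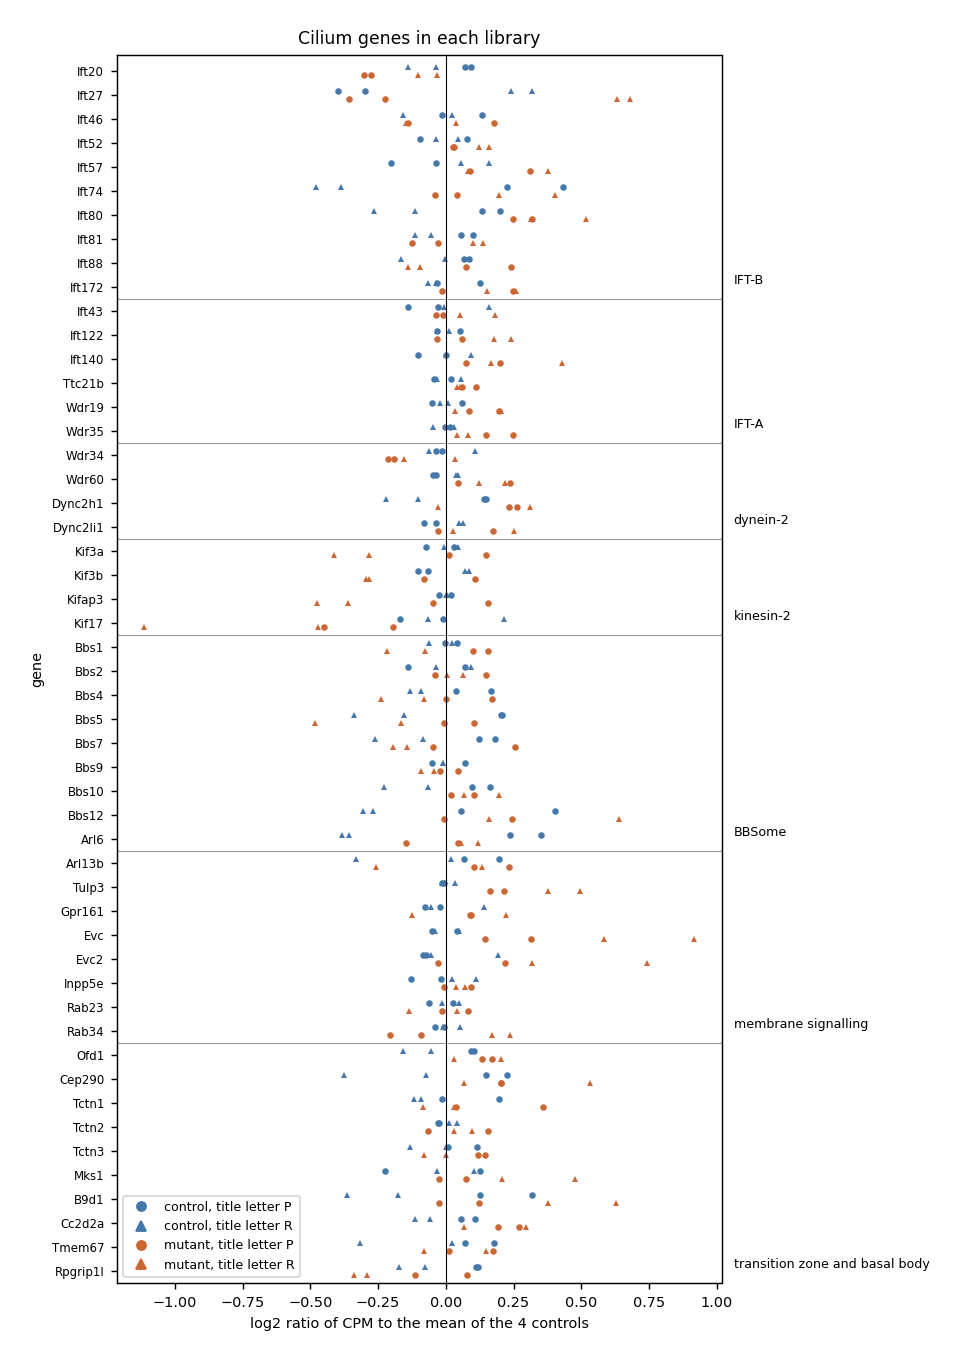
Log2 ratio of each library's CPM to the mean of the 4 controls for the 51 members, by role. Blue points are controls and orange points mutants, circles have title letter P and triangles R. Most members lie within 0.5 of 0 in all 8 libraries, and the orange triangles of Evc and Kif17 lie farthest out in opposite directions.

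The differences were small and mostly on one side. Of the 51 members, 37 had a higher mean in the mutants and 14 a lower one, beside 52.3% of all genes higher. Their log2 fold changes ran from -0.52 (Kif17) to 0.52 (Evc) with a median of 0.07, beside a median of 0.01 over all genes tested. The median was 0.06 among the P libraries, 0.07 among the R libraries and 0.06 without mutant 4. For 42 of the 51 the 95% interval of the fold change lay within 1.5-fold in either direction, as it did for 64% of all genes. Changes beyond 1.5-fold were thus outside the interval for most of the group, while 9 members had intervals too wide for that statement, Evc, Kif17 and Ift27 among them. Together the members took 0.1995% to 0.2181% of the counts in genes, lowest in control 3 and highest in mutant 1. This share separated by title letter: every P library (0.2105% or more) lay above every R library (0.2077% or less). Within each letter both mutants lay above both controls in this share, which is not TMM-scaled. In summed CPM this held in P but not in R. There mutant 3 (2007 CPM) lay below both controls (2025 and 2045 CPM) and mutant 4 (2057 CPM) above them. Kif3a, Kif3b and Kifap3 together held from 537 CPM (mutant 4) to 792 CPM (mutant 1) of these sums.

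**Figure D2:**
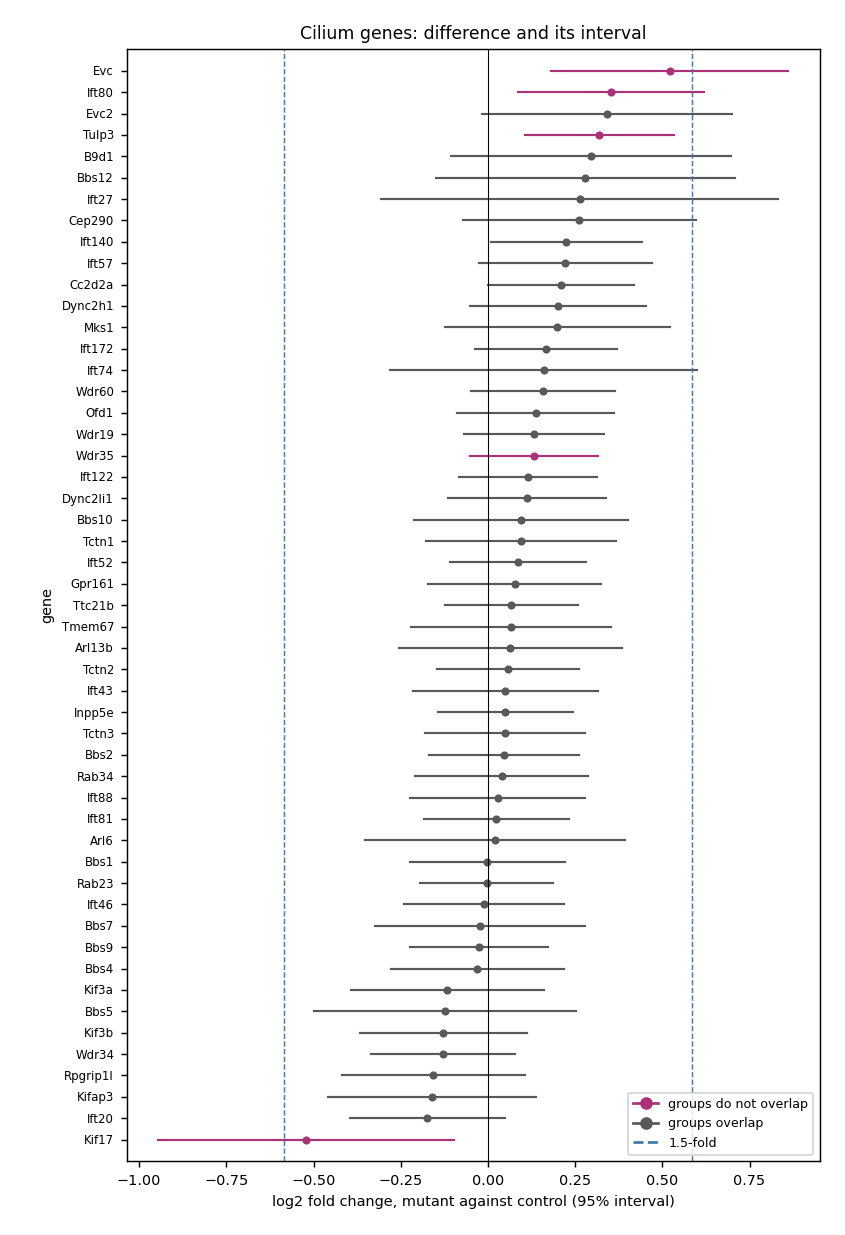
Log2 fold change of each member, mutant against control, with its 95% interval from the edgeR fit (4 against 4 libraries); dashed lines mark 1.5-fold. Purple marks the 5 members whose mutant and control values do not overlap; the intervals of Evc, Tulp3, Ift80 and Ift140 lie above 0 and that of Kif17 below it.

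The membrane signalling proteins, which set what the cilium receives, held the member with the smallest p. Evc is a transmembrane protein of the ciliary base that forms a complex with Evc2 and transmits the Smoothened signal, and mutations in either cause Ellis-van Creveld syndrome. Evc read 22.5, 21.0, 21.2 and 22.6 CPM in controls 1 to 4 and 24.1, 27.1, 32.8 and 41.2 CPM in mutants 1 to 4. The controls lay within 2 CPM of each other, and the mutants lay all above them and far apart, mutant 4 highest. The mean was 21.8 ± 0.813 CPM in controls and 31.3 ± 7.51 CPM in mutants (SD, n = 4 each), a log2 fold change of 0.52 (SE 0.15, unadjusted p = 0.00631, adjusted p = 0.381). Without mutant 4 it was 0.35. Among the P libraries it was 0.23 and among the R libraries 0.73.

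Evc2, its partner, is the neighbouring gene on chromosome 5 on the opposite strand. Evc2 read 12.8, 12.9, 15.5 and 13.1 CPM in the controls and 13.3, 15.8, 16.9 and 22.7 CPM in the mutants. Mutant 1 lay inside the control range, mutant 2 just above it, and mutant 4 was again highest. Its log2 fold change was 0.34 (unadjusted p = 0.0594), and 0.17 without mutant 4. Evc overlaps Crmp1 in the annotation, and whether reads were counted by strand is not stated, so reads of Evc and Crmp1 cannot be told apart with certainty.

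Tulp3, the Tubby-like adaptor that loads G protein-coupled receptors such as Gpr161 onto IFT-A, read 34.2, 34.0, 35.2 and 34.0 CPM in the controls and 38.5, 39.9, 44.6 and 48.4 CPM in the mutants. The controls were nearly equal and every mutant lay above them. The log2 fold change was 0.32 (SE 0.10, unadjusted p = 0.00716, adjusted p = 0.381), or 0.25 without mutant 4. It was 0.20 among the P libraries and 0.40 among the R libraries. Gpr161, a ciliary receptor that keeps the Hedgehog pathway low, had means of 16.2 ± 1.14 CPM in controls and 17.1 ± 1.66 CPM in mutants, and the groups overlapped. Inpp5e, the phosphatase that sets the ciliary membrane's lipids, and Arl13b, a small GTPase of the ciliary membrane, had log2 fold changes of 0.05 and 0.06. Rab23 and Rab34, GTPases of ciliary traffic and ciliogenesis, had -0.00 and 0.04. Of the 8 members of this role, 7 had a higher mean, with a median log2 fold change of 0.07, or 0.04 without mutant 4.

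The order of the mutants in Evc and Tulp3 was also the order of the granule precursor markers. Those 11 markers summed to between 1283 and 1545 CPM in the controls and to 1341, 1688, 1934 and 2611 CPM in mutants 1 to 4, with 11 of 11 higher in mean and none at 0. The 10 markers of dividing cells summed to between 960 and 1112 CPM in the controls and to 1173, 1133, 1510 and 1987 CPM in mutants 1 to 4, with 10 of 10 higher. Their median log2 fold change was 0.17 among the P libraries and 0.70 among the R libraries. For the granule precursor markers these medians were 0.33 and 0.51. The interaction of letter and genotype, described below, was called for 4 dividing cell markers and 0 granule precursor markers, beside 3.2% of all genes. The part of either marker list in the values of Evc and Tulp3 was not tested. Over the 8 libraries, the 5 genes whose log2 CPM was most like that of Evc, of 14704 candidates, were Spsb4 (Pearson r = 0.9939), Ccna2 (0.9899), Dcaf8 (0.9874), Zfp146 (0.9866) and Cchcr1 (0.9855). Ccna2 encodes the cyclin A of dividing cells. Among the cilium members the closest was Tulp3 (0.9723), followed by Ift122 (0.9475) and Ift140 (0.9305), while Kifap3 (-0.9012) and Kif17 (-0.8947) were the farthest. All of these values share the same libraries and the same group difference and are a description.

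**Figure D3:**
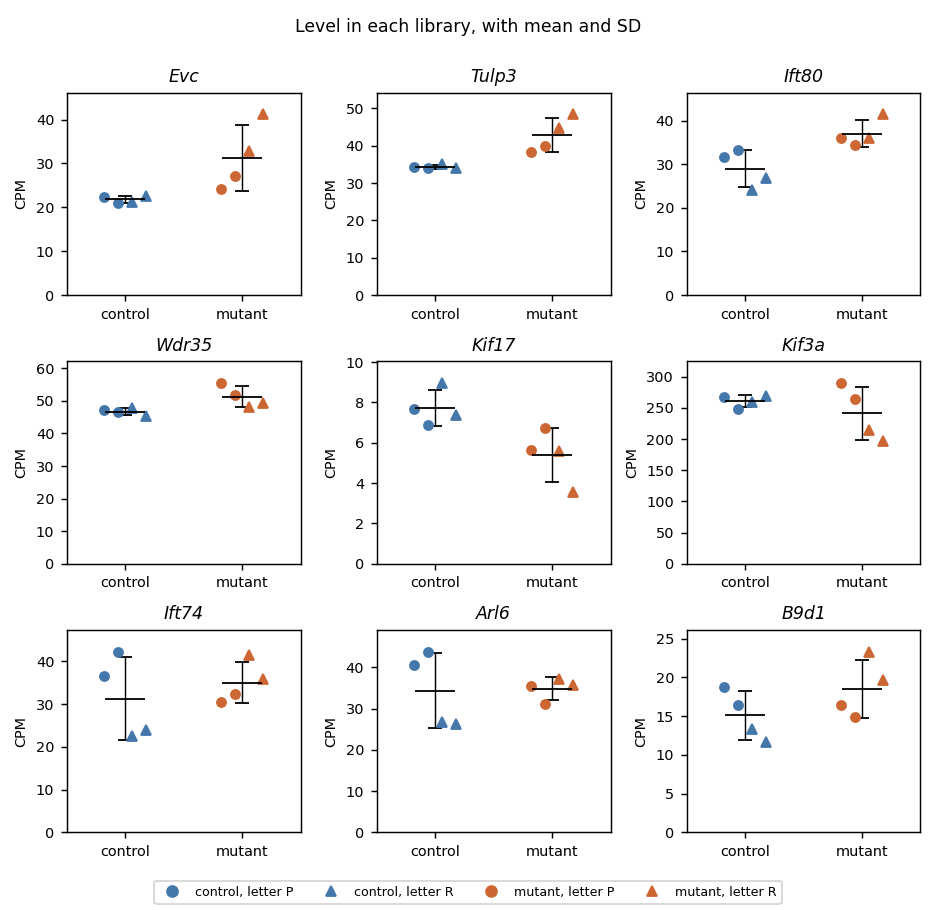
CPM of 9 members in each library, with the mean (horizontal bar) and SD (error bar) of each group; circles have title letter P and triangles R. Evc, Tulp3, Ift80 and Wdr35 show all mutants above all controls and Kif17 all below. Ift74, Arl6 and B9d1 separate by letter within both groups, and Kif3a only within the mutants.

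IFT-B, the complex that carries cargo outward, had 8 of 10 members with a higher mean and a median log2 fold change of 0.12. That median was 0.07 without mutant 4, 0.04 among the P libraries and 0.14 among the R libraries. Ift80, a subunit of the peripheral part of IFT-B, read 31.8, 33.3, 24.1 and 26.8 CPM in the controls and 36.1, 34.5, 36.1 and 41.5 CPM in the mutants. All mutants lay above all controls, although mutant 2 was within 2 CPM of control 2. The mean was 29.0 ± 4.27 CPM against 37.0 ± 3.07 CPM, a log2 fold change of 0.35 (SE 0.12, unadjusted p = 0.0145, adjusted p = 0.381). It was 0.11 among the P libraries and 0.58 among the R libraries. Ift57, another peripheral subunit, read 27.1, 30.4, 32.4 and 34.7 CPM in the controls and 33.1, 38.7, 32.9 and 40.4 CPM in the mutants. The groups overlapped and the log2 fold change was 0.22 (unadjusted p = 0.0753). Ift172 and Ift52 had 0.17 and 0.09, and Ift46, Ift81 and Ift88 lay between -0.01 and 0.03. Ift88, one of the subunits through which IFT was first tied to Hedgehog signalling in the mouse, had means of 25.0 ± 1.92 CPM and 25.4 ± 3.13 CPM. Ift20, which also works at the Golgi, had the lowest IFT-B value, -0.17, with means of 35.3 ± 2.56 CPM and 31.3 ± 2.84 CPM and overlapping groups.

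IFT-A, which carries receptors in and material back, had 6 of 6 members with a higher mean and a median of 0.12, with log2 fold changes from 0.05 (Ift43) to 0.22 (Ift140). Ift140 read 46.5, 43.4, 46.6 and 49.7 CPM in the controls and 49.0, 53.4, 52.3 and 62.7 CPM in the mutants. Mutant 1 alone lay inside the control range, and mutant 4 was highest. The log2 fold change was 0.22 (SE 0.10, unadjusted p = 0.0434, adjusted p = 0.393), or 0.14 without mutant 4. Wdr35 read 47.2, 46.7, 47.8 and 45.3 CPM in the controls and 55.5, 51.8, 48.1 and 49.5 CPM in the mutants, so the groups did not overlap, with mutant 3 within 1 CPM of control 3. Its log2 fold change was 0.13 (unadjusted p = 0.140), with 0.19 among the P libraries and 0.04 among the R libraries. Ift122, Wdr19 and Ttc21b had 0.11, 0.13 and 0.07, with Ift122 at 0.06 without mutant 4.

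Dynein-2, the motor of return transport, had 3 of 4 members with a higher mean. Its heavy chain Dync2h1 read 63.9, 63.5, 49.5 and 53.7 CPM in the controls and 67.8, 69.2, 56.6 and 71.6 CPM in the mutants. The R controls were below the P controls and mutant 3 lay among the controls, which left a log2 fold change of 0.20 (unadjusted p = 0.107). The intermediate chain Wdr60 read 20.8, 21.0, 22.2 and 22.1 CPM in the controls and 22.2, 25.3, 23.4 and 25.0 CPM in the mutants, with mutant 1 level with control 3. Its log2 fold change was 0.16 (unadjusted p = 0.12). The light intermediate chain Dync2li1 had 0.11 (0.06 without mutant 4), and Wdr34, the other intermediate chain, -0.13.

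Kinesin-2, the motor of outward transport, was the one role in which every member had a lower mean in the mutants, with a median of -0.14, or -0.08 without mutant 4. Kif17 is the homodimeric kinesin-2, known also for carrying receptors in dendrites. It read 7.67, 6.87, 8.96 and 7.37 CPM in the controls and 5.64, 6.75, 5.57 and 3.57 CPM in the mutants. All mutants lay below all controls, mutant 2 only just, and mutant 4 was lowest at 96 counts. The mean was 7.72 ± 0.890 CPM against 5.38 ± 1.32 CPM, a log2 fold change of -0.52 (SE 0.19, unadjusted p = 0.0204, adjusted p = 0.381), or -0.37 without mutant 4. It was -0.24 among the P libraries and -0.87 among the R libraries. The oligodendrocyte lineage markers, summed above, were also lowest in mutant 4, as were the hindbrain Hox genes. The oligodendrocyte markers were lower in mean under both letters (median log2 fold change -0.62 in P and -0.56 in R). In mutant 2, where Kif17 was highest among the mutants, they summed to 1013 CPM, below mutants 1 and 3 (1245 and 1152 CPM). The part of either marker list in the value of Kif17 was not tested.

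The heterotrimeric kinesin-2 consists of the motors Kif3a and Kif3b and the adaptor Kifap3, and it also serves transport in axons. Kifap3 read 312, 321, 318 and 318 CPM in the controls and 354, 307, 247 and 228 CPM in the mutants. Mutant 1 was above all controls and mutants 3 and 4 were far below. Kif3a gave 249 to 269 CPM in the controls and 290, 264, 215 and 196 CPM in mutants 1 to 4. For Kif3b the control range was 128 to 146 CPM and the mutants read 148, 130.4, 112 and 113 CPM. The 3 subunits thus had the same order across the title letters: their log2 fold changes were 0.06 to 0.10 among the P libraries and -0.45 to -0.39 among the R libraries. Over all libraries they were -0.12, -0.13 and -0.16 for Kif3a, Kif3b and Kifap3, with unadjusted p from 0.261 to 0.376. Without mutant 4 the 3 log2 fold changes were -0.03, -0.08 and -0.07. Among the mutants the hindbrain Hox genes were highest in mutant 1 and lowest in mutant 4. Unlike the 3 subunits, they were lower in mutant 2 (63.5 CPM) than in mutant 3 (97.2 CPM). The part of hindbrain tissue was not tested.

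The BBSome is a coat-like complex that moves membrane proteins out of the cilium, assembled with the help of chaperonin-like proteins including Bbs10 and Bbs12 and recruited by the GTPase Arl6. Here 4 of the 9 members had a higher mean and the median log2 fold change was -0.00 (0.03 without mutant 4), the nearest to 0 of the 7 roles with all libraries. Bbs12 read 9.06, 11.5, 7.22 and 7.04 CPM in the controls and 10.3, 8.68, 9.72 and 13.6 CPM in the mutants. Its groups overlapped, with a log2 fold change of 0.28 (SE 0.19, unadjusted p = 0.18), which was 0.13 without mutant 4, -0.12 among the P libraries and 0.68 among the R libraries. Bbs5 read 14.4, 14.5, 9.92 and 11.3 CPM in the controls and 13.5, 12.5, 11.2 and 8.96 CPM in the mutants. The difference between letters was larger here than that between genotypes, and the log2 fold change was -0.12 (unadjusted p = 0.481), or -0.02 without mutant 4. Bbs1, Bbs2, Bbs4, Bbs7 and Bbs9 lay between -0.03 and 0.05, and Bbs10 at 0.10.

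The transition zone and basal body genes, whose products form the gate at the base of the cilium and underlie Joubert and Meckel syndromes in people, had 9 of 10 members with a higher mean and a median of 0.12. Cc2d2a, a transition zone scaffold, read 34.9, 36.2, 31.0 and 32.2 CPM in the controls and 38.3, 40.5, 35.1 and 41.2 CPM in the mutants. Mutant 3 alone lay inside the control range, and the log2 fold change was 0.21 (SE 0.09, unadjusted p = 0.0510, adjusted p = 0.396). Cep290, which bridges microtubules and membrane there, read 22.3, 23.5, 19.1 and 15.5 CPM in the controls and 23.1, 23.2, 21.0 and 29.1 CPM in the mutants. The groups overlapped, and the log2 fold change was 0.26 (unadjusted p = 0.112), or 0.15 without mutant 4. Mks1 had 0.20 (0.08 without mutant 4), and Tctn1, Tctn2 and Tctn3, the tectonic family, had 0.09, 0.06 and 0.05, with Tmem67 at 0.07. Rpgrip1l was the one lower member at -0.16. Ofd1, a centriolar satellite and distal centriole protein encoded on the X chromosome, read 18.4 to 22.1 CPM in the controls and 21.0 to 23.7 CPM in the mutants, with 22.6 and 23.7 CPM in mutants 2 and 4, the libraries low in Xist.

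The genotype difference of 3 members was not the same under both title letters by a test of that difference, the interaction in one edgeR fit of all 8 libraries. They are Ift74, Arl6 and B9d1, beside 3.2% of all genes called in the same test. At an unadjusted p under 0.05 it was 12 of 51 members, against 22.5% of all genes. Ift74, which with Ift81 binds tubulin in the IFT-B core, read 36.6, 42.3, 22.5 and 23.9 CPM in the controls and 30.5, 32.3, 41.5 and 35.9 CPM in the mutants. The P controls lay above the P mutants and the R controls below the R mutants, with log2 fold changes of -0.33 and 0.71 (difference 1.07, adjusted p = 0.0220). Arl6 read 40.4, 43.8, 26.8 and 26.3 CPM in the controls and 35.4, 31.0, 37.3 and 35.6 CPM in the mutants. It had the same crossed order, -0.35 and 0.43 (difference 0.80, adjusted p = 0.0324), so that its difference over all libraries was only 0.02. B9d1, a transition zone protein, read 18.8, 16.5, 13.3 and 11.7 CPM in the controls and 16.4, 14.8, 23.3 and 19.6 CPM in the mutants, with -0.18 and 0.75 (difference 0.95, adjusted p = 0.0437). The heterotrimeric kinesin-2 subunits went the other way and had interaction adjusted p of 0.0808 to 0.0881, above the threshold.

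Ift74 overlaps Lrrc19 and Mir872 in the annotation and Arl6 overlaps 4930547E14Rik, and 13 of the 51 members overlap another gene with a row in the files. Apart from genotype, the P libraries did not overlap the R libraries for 7 members. Ift88, Bbs4, Bbs5, Bbs7 and Tctn3 were higher in P (5.99% of all genes were) and Ift27 and Ift43 higher in R (7.71% of all genes). Ift27, the small GTPase of IFT-B through which the BBSome leaves the cilium, read 21.1, 19.7, 20.2 and 22.2 CPM in the P libraries and 32.3, 30.6, 40.2 and 41.5 CPM in the R libraries. Its log2 fold change by genotype was 0.26, or 0.08 without mutant 4. Which property of the pups or libraries the letter marks is not known, and its part in these values was not tested.

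**Figure D4:**
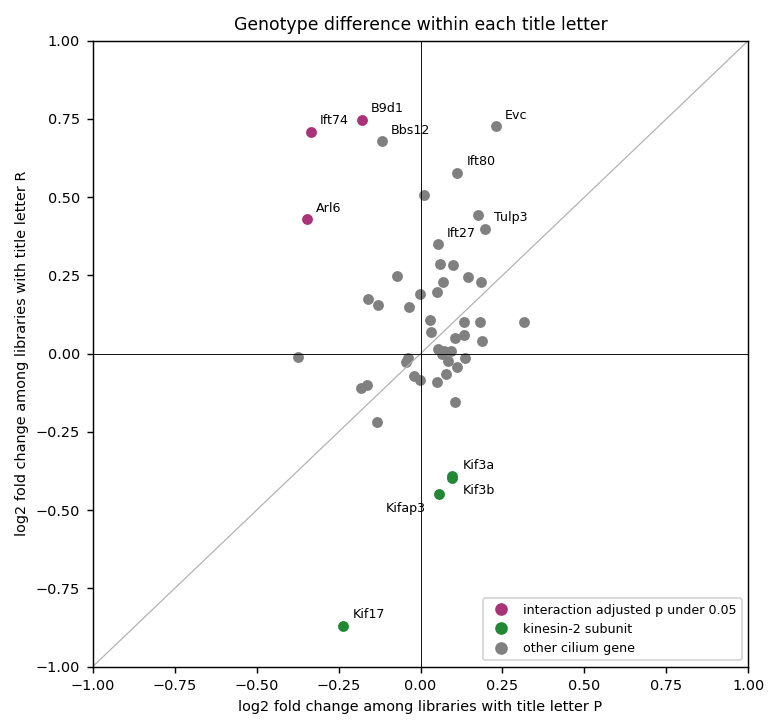
Log2 fold change of mutant against control among the 4 libraries with title letter P (horizontal) and the 4 with R (vertical), one point per member; the diagonal marks equal values. Ift74, Arl6 and B9d1 (purple) lie in the upper left, with values of opposite sign, and the heterotrimeric kinesin-2 subunits (green) lie together below 0 in R and just above it in P.

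The other genes of the cilium, 89 from a list of further IFT, motor, BBSome, transition zone, membrane traffic, basal body and transcription factor genes, are described by their counts. With edgeR and with DESeq2 0 passed the threshold. At an unadjusted p under 0.05, 10 were higher and 2 lower, beside 6.94% and 5.7% of all genes. A higher mean was found for 56 and a lower one for 33, beside 52.3% of all genes higher. Their median log2 fold change was 0.07, but 0.03 without mutant 4, 0.00 among the P libraries and 0.11 among the R libraries. Of the 89, 4 were higher without overlap, namely Ccp110, Cspp1, Pkd2 and Ttc8 (3.6% of all genes were), and 2 lower, Dynll2 and Cdk20 (2.96% of all genes). Ccp110, which caps the mother centriole until ciliogenesis starts, read 82.2, 86.5, 78.7 and 87.1 CPM in the controls and 98.6, 97.0, 91.5 and 114 CPM in the mutants. Its log2 fold change was 0.26 (unadjusted p = 0.0153), and every mutant lay above every control. Cspp1 of the ciliary axoneme base, the ciliary calcium channel Pkd2 and the BBSome subunit Ttc8 had 0.22, 0.22 and 0.20. Dynll2, a dynein light chain shared with many other complexes, read 420.0, 389, 421 and 391 CPM in the controls and 372, 346, 330.1 and 250.5 CPM in the mutants, a log2 fold change of -0.32 (unadjusted p = 0.0272). Cdk20, a kinase of ciliogenesis, had -0.18.

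The 7 listed transcription factors, Foxj1 and members of the RFX family, all had a higher mean in the mutants, with a median of 0.19. Rfx3 had 0.35, Rfx2 0.33 and Rfx7 0.30, with unadjusted p of 0.0284, 0.0282 and 0.0494 and none past the adjusted threshold. Foxj1, the master regulator of motile cilia, read 47.3, 29.6, 26.6 and 29.1 CPM in the controls and 28.0, 34.4, 47.1 and 42.3 CPM in the mutants, with overlap. The 26 markers of multiciliated cells, which build many motile cilia with the same IFT machinery, summed to between 191 and 296 CPM in the controls and between 235 and 258 CPM in the mutants. Of them 21 had a higher mean and 1 was higher without overlap, beside 3.6% of all genes, and none of the list was at 0 in any library. Their median log2 fold change was 0.17, or 0.10 without mutant 4. It was -0.19 among the P libraries and 0.52 among the R libraries, so the direction was not the same under both letters. Choroid plexus epithelium, whose cells are multiciliated, was higher by its markers as given above, and the part of these cells in the values of the cilium genes was not tested.

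The exon bin counts add where along the genes reads fell. All 51 members were tested, with 994 of 149224 bins, and 0 were called for a changed use of bins by Simes' method in edgeR, beside 0.00762% of 13125 genes, or by the gene-level test, beside 0.0229%. Of the 994 bins, 3 had an unadjusted p under 0.05, against 0.318% of all bins. A calibrated test gives a share of about 0.05 when nothing changes. The bin test was thus conservative here, and 0 called does not show that bin use was unchanged. The smallest p belonged to bin 29 of 29 of Ttc21b, a subunit of IFT-A. Bins are numbered along the chromosome and Ttc21b lies on the minus strand of chromosome 2, so this bin is at the 5′ end. It held 35, 35, 29 and 27 counts in the controls and 12, 19, 17 and 28 in the mutants, which is 2.55% ± 0.138 of the gene's bin counts against 1.42% ± 0.393 (SD, n = 4). The shares did not overlap, and the log2 difference in use was -0.58 (unadjusted p = 0.00419), but the Simes p of the gene was 0.121 before adjustment over genes. The next 2 members, Tctn1 and Ift57, had Simes p of 0.644 and 0.756.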

How the data were processed

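RNA of 8 whole cerebella, 1 pup each, was sequenced after polyA selection, per the labels' protocols, so replicates are separate animals. The deposited counts are whole numbers per gene and per exon bin, not normalized by the authors. Per the submitters' processing notes, TopHat, HTSeq, DESeq2 and the build mm9 were used, with the annotation, strand setting and versions not given in the sources used here. Summary lines that name no gene held 24.8% to 34.3% of the deposited gene table's counts and were left out. Each library kept 21479565 to 26638284 counts in genes; intervals cover the spread between these animals.

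Counts were analysed in R 4.3.3 with edgeR 4.0.16 (filterByExpr, TMM factors of 0.986 to 1.01, robust quasi-likelihood test of 4 mutants against 4 controls, Benjamini-Hochberg adjustment over 15789 genes). CPM are counts divided by the TMM-scaled library total. The interaction of title letter and genotype used the same fit over 8 libraries. Exon bins were tested with diffSpliceDGE. DESeq2 1.42.0, other size factors, other filters, the title letter as a block, each letter alone and leaving out each library were the alternatives. The scripts were tested on simulated data. Replicate numbers were given in accession order and pair nothing.

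The members and lists were chosen with earlier results of these data known. Named with every value were members past the threshold, those without overlap between groups, and the 2 of smallest p in each role. Of the other cilium genes, those without overlap were named. The others given by library (Evc2, Kif3a, Kif3b, Ift27, Foxj1, and the 3 with a called interaction) were chosen after their values were seen. Promoters and overlaps between genes come from RefSeq GRCm38.p6 tables and the GRCm38 annotation, a build other than that of the counts, and no coordinate was moved between builds. Levels are not compared between genes, since lengths were not used.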

Additional observations from a re-analysis of the deposited data

Results flagged for a closer look

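In 114 groups of 4 libraries looked at for a library far from the other 3, 5 were found, and chance gives about 1 in 20. Ift172 read 63.5 CPM in control 1 (55.5 to 56.8 CPM in the other controls). Tulp3 read 35.2 CPM in control 3, where the others lay within 1 CPM of each other. Evc2 read 15.5 CPM in control 3, Ttc8 19.0 CPM in control 3 and Pkd2 59.9 CPM in control 2, each apart from 3 controls that lay close together. All 5 are controls.

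The genotype difference was not the same under the title letters, by the interaction test, for 6 genes. The log2 fold change under R less that under P was 1.07 for Ift74, 0.80 for Arl6 and 0.95 for B9d1. Among the other cilium genes it was 0.88 for Tctex1d2, 1.92 for Dynlt1f and 0.66 for Unc119b, with adjusted p of 0.0418 for Dynlt1f, 0.0344 for Unc119b and just under the threshold for Tctex1d2. Dynlt1f was low, at 0.644 to 1.64 CPM. The letter's meaning is not stated.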

How the results depend on the processing

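The count of cilium members called stayed at 0 under all 15 alternatives of the gene test, and the median log2 fold change of the members stayed between 0.05 and 0.09. The count called also stayed at 0 under all 11 alternatives of the exon bin test, which was conservative as given above. Leaving out 1 library gave medians from 0.06 to 0.09. With the stricter filter on low values the interaction called 2 members in place of 3. Over all genes edgeR called 0, DESeq2 52 (49 of them among the genes that passed edgeR's filter), the P libraries alone 5, the R libraries alone 1 and the libraries without mutant 1, 1. Of 20 named genes, 2 changed direction, both among the P libraries alone: Bbs12 to -0.12 and Kifap3 to 0.0577; the cause was not tested. The smallest adjusted p of a named gene under any alternative was 0.0911, among the R libraries alone. The title letter as a block called 0 members, with a median of 0.07. No paired analysis was possible because the labels give no replicate numbers that pair a mutant with a control. The number of libraries, 4 a group, limits the precision. Each member had at least 96 counts in every library.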
